A study of Mus musculus with 12 samples.

Results

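The integrin and laminin genes of the mouse heart were followed here across 12 Affymetrix expression arrays. The members were the genes named by a probe set with 1 gene symbol that starts with Itga, Itgb, Lama, Lamb or Lamc and goes on with a chain number or letter. This gave 38 of the 18193 genes on the array, held by 83 of its 45037 probe sets, and each gene is given by its brightest probe set over the 12 arrays. The members are 25 integrin chains, 10 laminin chains and 3 genes whose symbols fit the rule and whose products bind integrin beta tails or were named for such binding (Itgb1bp1, Itgb1bp2 and Itgb3bp). Membership was set by the symbol, and mean intensity decided only which probe set stands for a gene.

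Whole hearts of male C57BL/6J mice were taken in 4 groups of 3 arrays. The knockout-labelled DOX hearts had the altered genotype of CHIP, a ubiquitin ligase and cochaperone encoded by Stub1, and had received the anthracycline doxorubicin (DOX), a cancer drug that harms the heart. The knockout-labelled untreated hearts had the same genotype label and no DOX. WT DOX and WT untreated hearts were the wild-type counterparts. The labels give a DOX dose of 15 mg/kg, day 5 for the DOX hearts and an age of 8 to 10 weeks, and call the genotype a CHIP knockout. The study itself describes a cardiac-specific CHIP transgene, saline in place of no treatment, and another dose and age. It places saline and DOX hearts alike at day 5 after injection. Which dose, age and control treatment applies, and whether an array holds 1 heart or several, is not settled by the sources used here. For the genotype, the Stub1 values of the arrays are given next.

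The arrays go against the word knockout on 1 of the 2 Stub1 probe sets. On the brighter Stub1 probe set the intensity was 5561, 7998 and 8723 in the libraries labelled knockout with DOX, and 1944, 1950 and 1930 in WT DOX hearts, a log2 fold change of 1.89 (adjusted p = 9.95e-04 from limma). Without DOX it was 8762, 9817 and 9655 in the libraries labelled knockout and 1857, 1831 and 1790.3 in WT hearts, a log2 fold change of 2.34 (adjusted p = 2.25e-04 from limma). On the dimmer Stub1 probe set, with 1037 to 1402 over the 12 arrays, the genotype difference was -0.08 after DOX (adjusted p = 0.736) and -0.04 without DOX (adjusted p = 0.936), and it was not called. On neither probe set was Stub1 called lower in the libraries labelled knockout. On the brighter one it was higher, the direction of the cardiac CHIP transgene that the study describes. The genotype is therefore called knockout-labelled throughout, after its label alone, and every genotype difference below carries this doubt about its label. The heart label was checked by 5 cardiomyocyte markers, whose summed intensity was 71221 to 77026.5 in knockout-labelled DOX hearts and 81634 to 82617 in knockout-labelled untreated hearts, and 63646 to 80656 in WT DOX hearts and 81550.2 to 85309.5 in WT untreated hearts. Array medians ran from 28.9 to 30.4 in intensity, and knockout-labelled untreated replicate 3 had the lowest mean correlation with its own group (0.990).

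Integrins are receptors made of an alpha and a beta chain, and they tie the cytoskeleton of a cell to the matrix around it. Laminins are trimers of an alpha, a beta and a gamma chain, and they form the sheet of the basement membrane that wraps each cardiomyocyte and underlies each endothelial cell. In heart muscle the laminin with the alpha2 chain binds integrin alpha7beta1 and dystroglycan at the sarcolemma, and loss of either link weakens the muscle membrane. Other integrin chains belong to leukocytes, platelets or epithelia, so a whole heart reports them from cells that are few.

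Across the members the DOX response was mostly downward, with a log2 fold change above 0 in 8 of 38 members in knockout-labelled hearts and 11 of 38 in WT hearts. In knockout-labelled hearts 5 of 38 members were called lower and 0 higher at an adjusted p under 0.05 from limma (8 residual degrees of freedom), where 1.47% of all probe sets were called lower and 0.731% higher. They were Itga6, Itga8, Itga1, Itgb6 and Lamb1. At an unadjusted p under 0.05, 2 members had a positive and 11 a negative fold change, where 7.76% of all probe sets were positive and 8.39% negative. In WT hearts 2 members, Itga4 and Itga8, were called lower and 0 higher, where 1.40% of all probe sets were called lower and 1.66% higher. At an unadjusted p under 0.05, 3 members were positive and 14 negative, where 4510 of the 45037 probe sets were positive and 3964 (8.80%) negative. The cardiomyocyte marker sums above moved the same way, all 6 DOX arrays lying below all 6 untreated arrays. Of these 5 markers Ryr2, the calcium release channel, was called lower after DOX in knockout-labelled hearts (-0.50, adjusted p = 0.042 from limma), and 0 of 5 were called in WT hearts. The part of this shift in the members' values was not tested.

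The single-genotype counts rest on few arrays. Without knockout-labelled DOX replicate 1 or replicate 2 the count in knockout-labelled hearts was 0, without knockout-labelled untreated replicate 1 it was 2 and without replicate 3 of that group it was 3. The share of all probe sets called fell as well, from 2.20% with all arrays. It was 0.258% and 0.671% without those DOX replicates and 1.29% and 1.53% without those untreated replicates, in that order. In WT hearts the count of members was 0 without WT DOX replicate 1 or 2 or WT untreated replicate 2 or 3. It was 4 without WT DOX replicate 3 and 5 without WT untreated replicate 1. The share of all probe sets, 3.06% with all arrays, was 0.591%, 0.349%, 0.253% and 0.091% in the runs with 0 members, in that order. It was 5.07% without WT DOX replicate 3 and 1.93% without WT untreated replicate 1. The mean of the DOX responses of both genotypes was also tested, a comparison chosen after seeing the data. It called 11 of 38 members, 9 lower and 2 higher, where 4.59% of all probe sets were called lower and 4.56% higher. Itga1, Itga4, Itga6, Itga8, Itgb6, Lama2, Lama4, Lamb1 and Lamc1 fell, and Lama5 and Lamb2 rose. Of the cardiomyocyte markers Ryr2 (-0.40, adjusted p = 0.0121 from limma) and Actc1 (-0.38, adjusted p = 0.025) fell in this comparison. Without knockout-labelled DOX replicate 1, knockout-labelled untreated replicate 1 or WT DOX replicate 1 the count was 7 in place of 11. Of all probe sets 5.06%, 6.90% and 6.15% were called in these runs, in that order, in place of 9.15%.

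**Figure D1:**
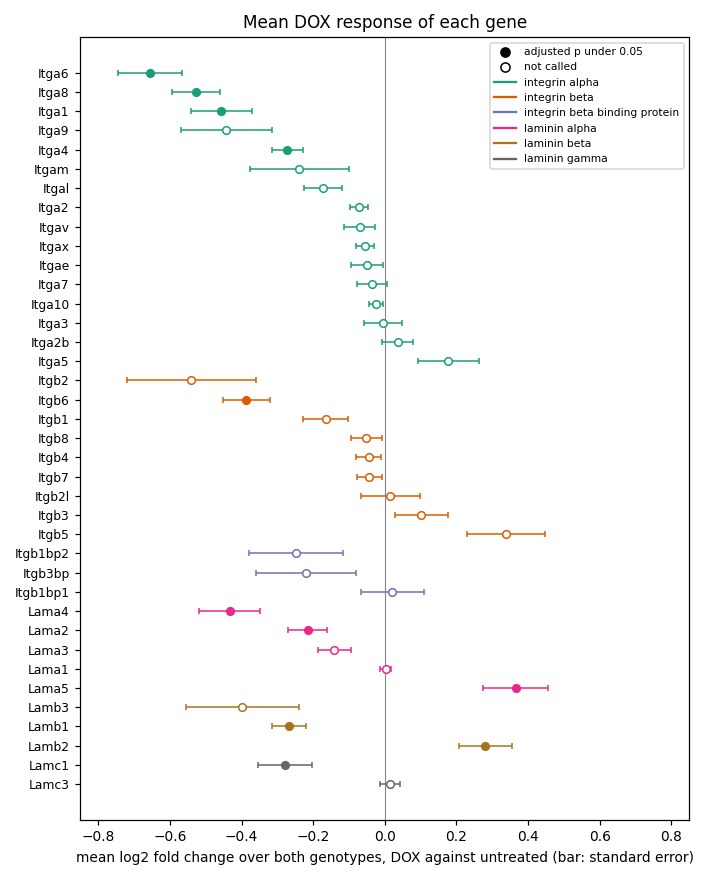
Mean log2 fold change of DOX against untreated hearts over both genotypes for each of the 38 genes (x axis), with bars for the standard error. Filled points passed an adjusted p under 0.05. Itga6 lies farthest left at -0.66, and the filled points to the right of 0 are Lama5 at 0.37 and Lamb2 at 0.28.

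Of the 38 members, Itga6 had the most negative mean DOX response. Its product joins beta1 or beta4 to bind several laminins and is prominent on endothelial cells. In bulk tissue, fewer cells of a type and less RNA per cell cannot be told apart, for this and every other gene given here. Its intensity was 327, 277 and 350.2 in knockout-labelled DOX hearts and 698, 549.6 and 483 in knockout-labelled untreated hearts, and 294, 302 and 321 in WT DOX hearts and 456, 405 and 506 in WT untreated hearts. Within each genotype the DOX and untreated arrays did not overlap. The log2 fold change was -0.79 in knockout-labelled hearts (adjusted p = 0.0196 from limma, standard error 0.13) and -0.52 in WT hearts (standard error 0.13, adjusted p = 0.0574). The second of these missed the threshold, and the first missed it without knockout-labelled DOX replicate 1 (adjusted p = 0.0713) or replicate 2 (0.0617). The mean of both responses was -0.66 (standard error 0.09, adjusted p = 0.00371), and that call held without each of the 12 arrays in turn. The dimmer Itga6 probe set had a mean response of -0.48 (adjusted p = 0.0188).

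Itga1 encodes the chain of integrin alpha1beta1, a receptor for collagen IV and laminin that is common on smooth muscle, fibroblasts and capillary endothelium. Its intensity was 181, 159 and 146 in knockout-labelled DOX hearts and 281, 235 and 289.6 in knockout-labelled untreated hearts, and 172, 151 and 174 in WT DOX hearts and 205, 174 and 252 in WT untreated hearts. The 2 knockout-labelled groups did not overlap, and WT untreated replicate 2 was level, to 3 digits, with the highest WT DOX array. The log2 fold change was -0.63 in knockout-labelled hearts (adjusted p = 0.0315 from limma), -0.28 in WT hearts (adjusted p = 0.235) and -0.46 on average (adjusted p = 0.0116). The knockout-labelled call was lost without any of the 3 DOX arrays or without untreated replicate 1 or 3 (adjusted p between 0.0751 and 0.0927). The second Itga1 probe set, whose mean intensity was 44.9, ran the other way, with a mean DOX response of 0.20 (adjusted p = 0.0759), and with the mean of both probe sets Itga1 was not called (adjusted p = 0.223 for the mean response). The fall of Itga1 therefore holds for 1 of its 2 probe sets.

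Itga7, the chain of the main laminin receptor of adult muscle, was called in no comparison. It is named here for that role, after its values were seen. Its intensity was 195, 197 and 197 in knockout-labelled DOX hearts and 224, 202 and 198 in knockout-labelled untreated hearts, and 194, 207 and 179 in WT DOX hearts and 208, 189 and 183 in WT untreated hearts. The knockout-labelled DOX arrays lay just below the untreated ones, and the WT groups overlapped. Its mean DOX response was -0.04 (adjusted p = 0.699 from limma, standard error 0.04). Itga3, another laminin-binding chain, had a mean response of -0.01 (standard error 0.05, adjusted p = 0.973).

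**Figure D2:**
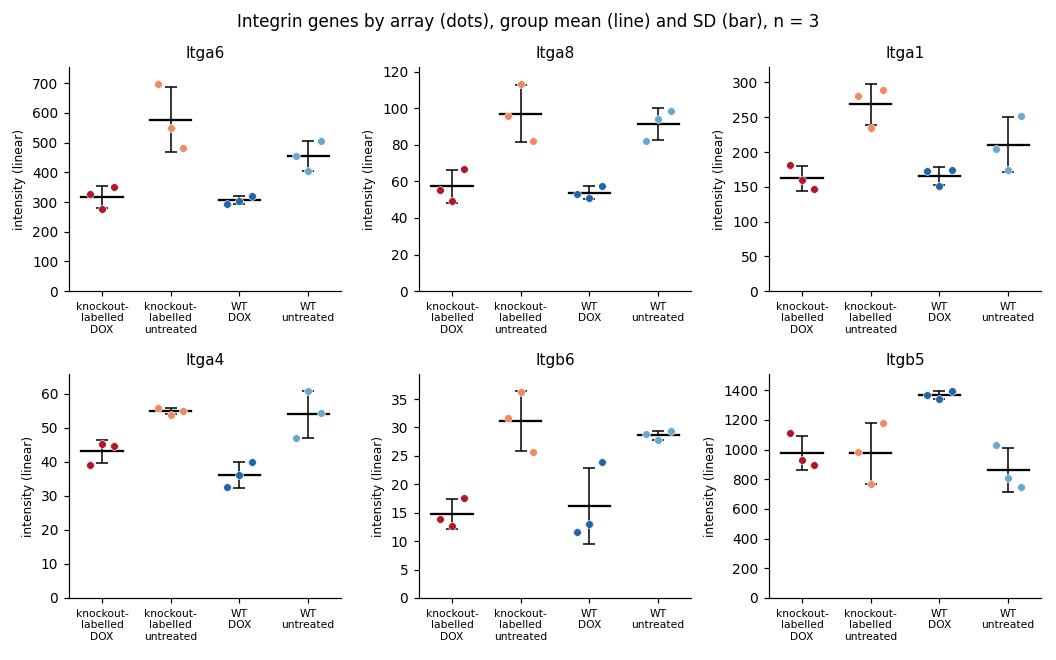
Linear intensity (y axis, from 0) of 6 integrin genes on each array (dots), with the group mean (line) and SD (bar, n = 3). For Itga6 and Itga8 the DOX arrays of each genotype lie below all untreated arrays, while the 3 WT DOX arrays of Itgb5, at 1368, 1342 and 1396, lie above all other arrays.

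Itga8 fell in both genotypes. Its product pairs with beta1, binds nephronectin and fibronectin through their RGD motif, and is found on smooth muscle and fibroblasts. Its intensity was 55.3, 49.4 and 67.1 in knockout-labelled DOX hearts and 95.7, 113 and 82.2 in knockout-labelled untreated hearts, and 53.3, 50.7 and 57.6 in WT DOX hearts and 81.9, 94.1 and 98.7 in WT untreated hearts. All 6 DOX arrays lay below all 6 untreated arrays. After DOX the change on the log2 scale was -0.53 in knockout-labelled hearts (adjusted p = 0.0272 from limma, standard error 0.10) and -0.52 in WT hearts (standard error 0.10, adjusted p = 0.0265). The mean response was -0.53 (standard error 0.07, adjusted p = 0.00302), the smallest adjusted p among the members, and it held without each of the 12 arrays. The single-genotype calls did not hold without knockout-labelled DOX replicate 1 or 2, knockout-labelled untreated replicate 1, WT DOX replicate 1 or 2, or WT untreated replicate 2 or 3 (adjusted p between 0.0615 and 0.105).

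Itga4 and Itga9 encode related chains that bind VCAM1 and fibronectin or tenascin, Itga4 on lymphocytes and monocytes in the main. The intensity of Itga4 was 39.1, 45.3 and 44.7 in knockout-labelled DOX hearts and 55.7, 53.8 and 54.9 in knockout-labelled untreated hearts, and 32.4, 36.0 and 39.8 in WT DOX hearts and 46.9, 60.6 and 54.2 in WT untreated hearts. Again all 6 DOX arrays lay below all 6 untreated arrays. On the log2 scale the change was -0.21 in knockout-labelled hearts (adjusted p = 0.111 from limma), -0.33 in WT hearts (adjusted p = 0.0257) and -0.27 on average (adjusted p = 0.00634). The WT call was lost without WT DOX replicate 1 or 2 or WT untreated replicate 2 or 3 (adjusted p between 0.0761 and 0.0960), and the mean response kept its call without each array. The other 4 Itga4 probe sets had a mean intensity of at most 17.9 and a mean response between -0.06 and 0.01.

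Itga9 was not called on its brightest probe set, with a mean response of -0.44 (adjusted p = 0.0593 from limma, standard error 0.13). Its 6 DOX arrays lay between 50.1 and 82.0 and its 6 untreated arrays between 83.5 and 142, so they did not overlap. A dimmer Itga9 probe set, with a mean intensity of 31.4, did pass, at -0.35 (adjusted p = 0.0116). The dimmest, with a mean intensity of 27.1, did not, at -0.08 (adjusted p = 0.148 from limma). All 6 DOX arrays lay below all 6 untreated arrays for 5 members (Itga4, Itga6, Itga8, Itga9 and Itgb6) and above them for 0, where 3.10% of all probe sets had such a separation in either direction.

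The alpha chain with the brightest probe set, Itgav, forms the vitronectin and fibronectin receptors with several beta chains. Its intensity was 866 ± 21.6 in knockout-labelled DOX hearts and 896 ± 80.9 in knockout-labelled untreated hearts, and 824 ± 7.49 in WT DOX hearts and 884 ± 58.8 in WT untreated hearts (SD, n = 3). Its mean response was -0.07 (adjusted p = 0.402 from limma). Itga5, the chain of the fibronectin receptor, had a mean response of 0.18 (standard error 0.08, adjusted p = 0.248).

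Among the beta chains, Itgb1 is the shared partner of most of the alpha chains above. Its intensity was 656, 602 and 491 in knockout-labelled DOX hearts and 644, 671 and 658 in knockout-labelled untreated hearts, and 537, 539 and 514 in WT DOX hearts and 594, 551 and 640.4 in WT untreated hearts. In knockout-labelled hearts DOX replicate 1 lay within the untreated range, while in WT hearts the 3 DOX arrays lay below the untreated ones, and the mean response was -0.17 (adjusted p = 0.14 from limma, standard error 0.06). Of its other probe sets the 2 bright ones had mean responses of -0.02 and -0.02.

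Itgb5, which joins the alphaV chain to bind vitronectin, stood out for its level in WT DOX hearts. Its intensity was 1112, 930.4 and 899 in knockout-labelled DOX hearts and 981, 768 and 1179 in knockout-labelled untreated hearts, and 1368, 1342 and 1396 in WT DOX hearts and 1032, 808 and 749.6 in WT untreated hearts. In WT hearts the DOX arrays lay above all untreated arrays, and in knockout-labelled hearts the 2 groups overlapped. The change in log2 intensity was 0.02 in knockout-labelled hearts (adjusted p = 0.975 from limma, standard error 0.15) and 0.66 in WT hearts (standard error 0.15, adjusted p = 0.0522), so neither passed on this probe set. Of its 3 other probe sets, 2 passed in WT hearts, at 0.74 (adjusted p = 0.0474) and 0.60 (adjusted p = 0.0394), and the remaining one gave 0.63 (adjusted p = 0.0515). The difference between the 2 responses was -0.64 (standard error 0.22, adjusted p = 0.505) and was not called.

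Itgb6 encodes a chain of epithelia that, with alphaV, activates latent TGF-beta. Its probe set was dim, with 13.9, 12.6 and 17.7 in knockout-labelled DOX hearts and 31.6, 36.2 and 25.6 in knockout-labelled untreated hearts, and 11.5, 13.1 and 23.9 in WT DOX hearts and 28.8, 27.7 and 29.4 in WT untreated hearts. Every DOX array lay below every untreated array. The log2 fold change, taken after 32 was added to each intensity, was -0.43 in knockout-labelled hearts (adjusted p = 0.0464 from limma), -0.34 in WT hearts (adjusted p = 0.0795) and -0.39 on average (adjusted p = 0.00834). The added value makes the fold of a dim gene smaller than that of its raw intensities. The knockout-labelled call was lost without any array of that genotype except untreated replicate 3 (adjusted p between 0.0669 and 0.152), and the mean response kept its call without each array.

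Of the leukocyte integrins, Itgb2 and Itgam are given in full, a choice made after their values were seen. Itgb2 is the beta chain shared by Itgal (LFA-1), Itgam (Mac-1) and Itgax. The intensity of Itgb2 was 87.4, 75.4 and 72.3 in knockout-labelled DOX hearts and 131, 77.5 and 206 in knockout-labelled untreated hearts, and 57.4, 85.2 and 39.7 in WT DOX hearts and 92.0, 91.4 and 114 in WT untreated hearts. Knockout-labelled untreated replicate 3 was the highest array and WT DOX replicate 3 the lowest, and the WT groups did not overlap while the knockout-labelled groups did. The mean response was -0.54 with a standard error of 0.18 (adjusted p = 0.097 from limma), so it was not called. Itgam was dim, and its intensity was 13.3, 15.8 and 10.1 in knockout-labelled DOX hearts and 17.7, 15.2 and 54.3 in knockout-labelled untreated hearts, and 10.8, 20.2 and 9.22 in WT DOX hearts and 17.5, 15.2 and 15.9 in WT untreated hearts. The value of knockout-labelled untreated replicate 3 stood apart from the rest, which lay between 9.22 and 20.2.

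Itgal had a mean response of -0.17 (adjusted p = 0.0742 from limma) and Itgax one of -0.05 (adjusted p = 0.241). The summed intensity of 6 macrophage markers, none of them a member, was 2590.4 to 3131 in knockout-labelled DOX hearts and 2839 to 4473 in knockout-labelled untreated hearts, and 1842 to 2458 in WT DOX hearts and 3064 to 3906 in WT untreated hearts. All 6 markers had negative DOX responses in both genotypes, and Csf1r (-0.75, adjusted p = 0.0164 from limma) and Cd68 (-0.95, adjusted p = 0.0188) were called lower in WT hearts. The sum of 3 neutrophil markers ran from 756 to 2484 in knockout-labelled DOX hearts, 248 to 4779 in knockout-labelled untreated hearts, 501 to 6117 in WT DOX hearts and 659 to 1938 in WT untreated hearts, with the highest values in WT DOX replicate 2 and knockout-labelled untreated replicate 3. The part of these cell types in the integrin values was not tested.

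**Figure D3:**
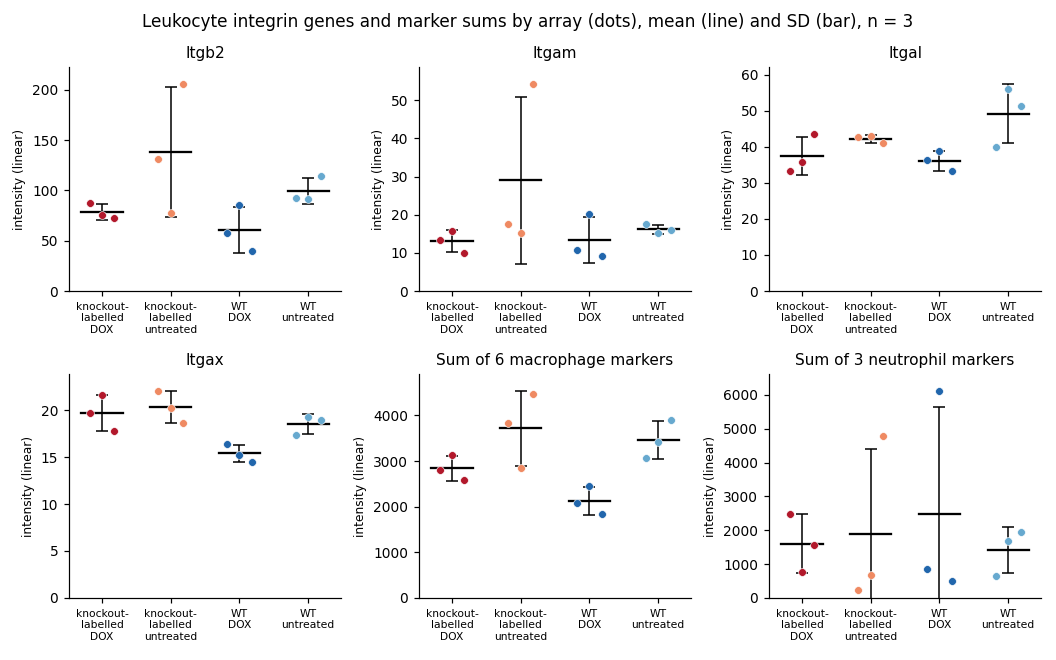
Linear intensity (y axis, from 0) of 4 leukocyte integrin genes and of the sums of 6 macrophage and 3 neutrophil markers on each array (dots), with the group mean (line) and SD (bar, n = 3; bars that would pass below 0 end at 0). The macrophage sums of the WT DOX arrays, 1842 to 2458, lie below those of all other arrays.

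The platelet receptor chains Itga2b and Itgb3, which together bind fibrinogen, had mean responses of 0.04 and 0.10 and were not called (adjusted p = 0.719 and 0.493 from limma). The sum of 5 platelet markers was 425 to 479 in knockout-labelled DOX hearts and 532 to 860.4 in knockout-labelled untreated hearts, and 326 to 425 in WT DOX hearts and 555 to 743 in WT untreated hearts. Pf4, the brightest of those 5 (mean intensity 378, against 79.9 for Ppbp, the next), was called lower in WT hearts (-1.08, adjusted p = 0.0157). The WT responses of the other markers were 0.11 for Ppbp, 0.06 for Gp5, -0.04 for Gp9 and -0.10 for Gp1bb, none of them called.

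Of the binding protein genes, Itgb1bp2 encodes melusin, a muscle protein that binds the beta1 tail and senses stretch in the heart. Its intensity was 1204, 1821 and 1884 in knockout-labelled DOX hearts and 1654, 2025 and 1517 in knockout-labelled untreated hearts, and 1403, 1501 and 1866 in WT DOX hearts and 2449, 1979.8 and 1886 in WT untreated hearts. The WT groups did not overlap, with DOX lower, while the knockout-labelled groups did. The responses were -0.10 in knockout-labelled hearts (adjusted p = 0.879 from limma) and -0.40 in WT hearts (adjusted p = 0.288). Itgb1bp1, whose product binds the beta1 tail and hinders integrin activation, averaged 472 ± 29.6 in knockout-labelled DOX hearts and 501 ± 66.4 in knockout-labelled untreated hearts, and 508 ± 96.3 in WT DOX hearts and 461 ± 21.2 in WT untreated hearts (SD, n = 3). It had a mean response of 0.02 (adjusted p = 0.935). Itgb3bp encodes a protein now known mostly as a kinetochore subunit. Its intensity was 51.8, 64.1 and 74.2 in knockout-labelled DOX hearts and 79.1, 116 and 188 in knockout-labelled untreated hearts, and 77.8, 87.6 and 81.5 in WT DOX hearts and 58.7, 67.3 and 65.6 in WT untreated hearts, and untreated replicate 3 of the knockout-labelled hearts was the highest array. Its DOX responses ran in opposite directions, -0.70 in knockout-labelled hearts and 0.25 in WT hearts, a difference of -0.95 (standard error 0.28, adjusted p = 0.464) that was not called.

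The laminin chains moved in both directions after DOX. Of the alpha chains, Lama2 is the one of the cardiomyocyte basement membrane. Its intensity was 752, 716 and 707 in knockout-labelled DOX hearts and 901, 792 and 805 in knockout-labelled untreated hearts, and 679, 797 and 633 in WT DOX hearts and 852, 795 and 852 in WT untreated hearts. The knockout-labelled groups did not overlap, and WT DOX replicate 2 lay within the range of WT untreated hearts. The mean response was -0.21 (adjusted p = 0.0384 from limma, standard error 0.05), and neither genotype passed alone, with -0.19 in knockout-labelled hearts (adjusted p = 0.261) and -0.24 in WT hearts (adjusted p = 0.126). The call was lost without any 1 of 9 of the 12 arrays, that is all but knockout-labelled untreated replicates 2 and 3 and WT DOX replicate 2 (adjusted p up to 0.0899).

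Lama4 is a chain of the laminins of blood vessels and of muscle. Its intensity was 295, 332 and 418 in knockout-labelled DOX hearts and 488, 468 and 473 in knockout-labelled untreated hearts, and 297, 277 and 325 in WT DOX hearts and 473, 358 and 426 in WT untreated hearts. In both genotypes the DOX arrays lay below the untreated arrays. Its log2 fold change was -0.43 in knockout-labelled hearts (adjusted p = 0.101 from limma), -0.44 in WT hearts (adjusted p = 0.081) and -0.43 on average (standard error 0.08, adjusted p = 0.0142), and the last held without each array. The dim second probe set had a mean response of -0.20 (adjusted p = 0.0367).

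Lama5, a chain of the mature basement membranes of vessels and many epithelia, ran the other way. Its intensity was 291, 239.8 and 258 in knockout-labelled DOX hearts and 176, 204 and 134 in knockout-labelled untreated hearts, and 269, 252 and 297 in WT DOX hearts and 254, 207 and 249.9 in WT untreated hearts. The knockout-labelled groups did not overlap, and the lowest array was knockout-labelled untreated replicate 3. After DOX its log2 fold change was 0.55 in knockout-labelled hearts (adjusted p = 0.0595 from limma, standard error 0.13), 0.18 in WT hearts (adjusted p = 0.503) and 0.37 on average (adjusted p = 0.0335). The mean call was lost without any 1 of 7 arrays, namely knockout-labelled DOX replicate 1 or 3, knockout-labelled untreated replicate 1, WT DOX replicate 1 or 3, or WT untreated replicate 2 or 3 (adjusted p up to 0.0833). A second Lama5 probe set had a mean response of 0.32 (adjusted p = 0.0779). The dimmest, with a mean intensity of 12.6, had the opposite sign at -0.04 (adjusted p = 0.596 from limma).

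**Figure D4:**
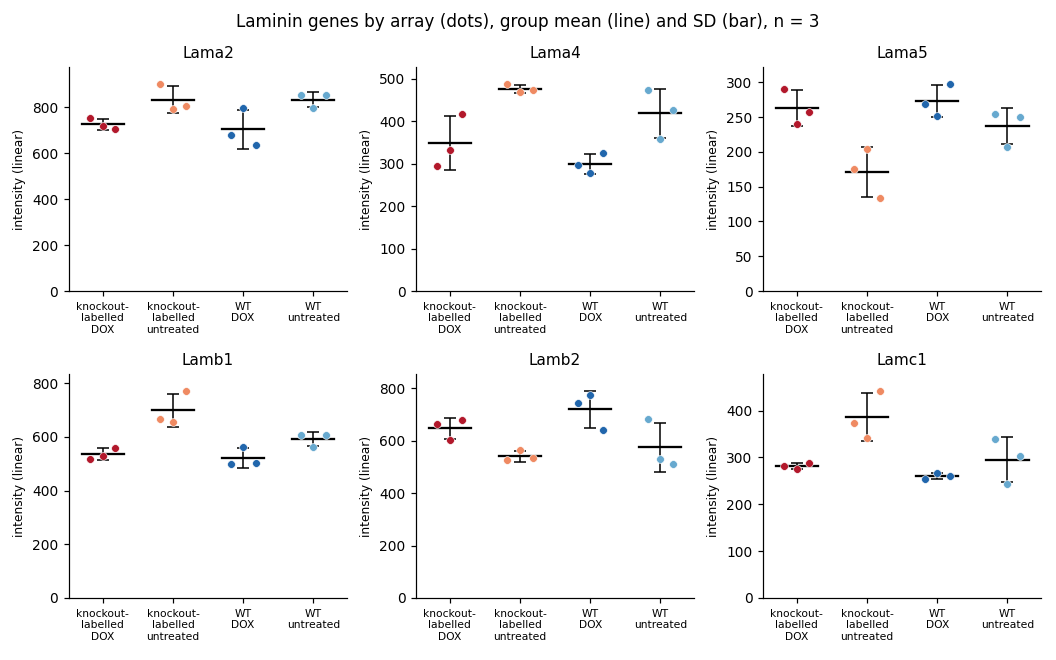
Linear intensity (y axis, from 0) of 6 laminin genes on each array (dots), with the group mean (line) and SD (bar, n = 3). Lama4 is lower and Lama5 higher in knockout-labelled DOX hearts than in knockout-labelled untreated hearts, with no overlap, and the 3 DOX arrays of Lamc1 in each genotype lie close together.

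The beta chains Lamb1 and Lamb2 replace each other in laminin trimers, and they moved in opposite directions. The intensity of Lamb1 was 519, 529.9 and 559.9 in knockout-labelled DOX hearts and 666, 657 and 771 in knockout-labelled untreated hearts, and 499, 563 and 501 in WT DOX hearts and 608, 561 and 606 in WT untreated hearts. Knockout-labelled DOX hearts lay below the untreated ones without overlap, and the WT groups overlapped slightly. Its log2 fold change after DOX was -0.36 in knockout-labelled hearts (adjusted p = 0.0302 from limma, standard error 0.07), -0.17 in WT hearts (adjusted p = 0.194) and -0.27 on average (adjusted p = 0.0102). A second Lamb1 probe set gave -0.49 (adjusted p = 0.0333) in knockout-labelled hearts and -0.35 (adjusted p = 0.0129) on average. On the brightest probe set the knockout-labelled call was lost without DOX replicate 1 or 2 or untreated replicate 1 or 3. The adjusted p was then between 0.0503 and 0.118. The mean response on that probe set kept its call without each array.

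The intensity of Lamb2 was 663, 602 and 679.7 in knockout-labelled DOX hearts and 526, 565 and 534 in knockout-labelled untreated hearts, and 745, 775 and 639.8 in WT DOX hearts and 683, 530.4 and 511 in WT untreated hearts. In knockout-labelled hearts the DOX arrays lay above the untreated ones, and in WT hearts WT untreated replicate 1 lay within the DOX range. The mean response was 0.28 (adjusted p = 0.0427 from limma, standard error 0.07), with 0.24 in knockout-labelled hearts and 0.32 in WT hearts. This call held without WT DOX replicate 3 or WT untreated replicate 1 and was lost without each of the other 10 arrays (adjusted p up to 0.0983). Lamb3, a chain of epithelial laminin, had 106, 114 and 156 in knockout-labelled DOX hearts and 119.9, 164 and 120.1 in knockout-labelled untreated hearts, and 96.2, 91.6 and 99.8 in WT DOX hearts and 217, 233 and 107 in WT untreated hearts. The knockout-labelled groups overlapped and the WT groups did not. Its log2 fold change was -0.09 in knockout-labelled hearts (adjusted p = 0.916 from limma) and -0.71 in WT hearts (adjusted p = 0.12), with a standard error of 0.22, and neither was called.

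The gamma1 chain, encoded by Lamc1, is part of nearly all laminins of the heart. Its intensity was 281, 276 and 288 in knockout-labelled DOX hearts and 374, 342 and 442 in knockout-labelled untreated hearts, and 254, 268 and 261 in WT DOX hearts and 339, 244 and 303 in WT untreated hearts. The knockout-labelled groups did not overlap, and WT untreated replicate 2 lay below the WT DOX arrays. The log2 fold change was -0.40 in knockout-labelled hearts (adjusted p = 0.0864 from limma), -0.15 in WT hearts (adjusted p = 0.513) and -0.28 on average (adjusted p = 0.0482). The mean call held without knockout-labelled untreated replicate 2 or WT untreated replicate 2 and was lost without each of the other 10 arrays (adjusted p up to 0.109). The second Lamc1 probe set, with a mean intensity of 107, was not called. It gave -0.44 in knockout-labelled hearts (adjusted p = 0.326), 0.02 in WT hearts (adjusted p = 0.979) and -0.21 on average (adjusted p = 0.454). With the mean of both probe sets Lamc1 was not called. Lamc3, the gamma chain of neural and other special basement membranes, was dim at 23.9 ± 1.86 in knockout-labelled DOX hearts and 21.9 ± 0.190 in knockout-labelled untreated hearts, and 21.7 ± 0.498 in WT DOX hearts and 22.6 ± 2.98 in WT untreated hearts (SD, n = 3).

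Because Lamb1 and Itga8 fell while Lama5 rose, and Itgb5 was high in WT DOX hearts, the DNA before the starts of these genes is shown for comparison. Each line holds the 100 bases before the annotated gene, 5′ to 3′ on the gene's strand, from RefSeq (GRCm38.p6), with GC boxes (GGGCGG) and CCAAT boxes (CCAAT), searched on both strands, in capitals.
Itga8, chr2:12301986-12302085 (- strand): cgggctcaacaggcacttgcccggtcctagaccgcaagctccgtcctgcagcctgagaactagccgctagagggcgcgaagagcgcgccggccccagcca
Lamb1, chr12:31265046-31265145 (+ strand): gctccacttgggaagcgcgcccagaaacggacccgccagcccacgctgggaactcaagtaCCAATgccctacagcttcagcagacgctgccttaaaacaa
Lama5, chr2:180225905-180226004 (- strand): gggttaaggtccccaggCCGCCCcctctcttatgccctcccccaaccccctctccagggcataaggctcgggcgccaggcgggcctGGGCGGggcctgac
Itgb5, chr16:33829565-33829664 (+ strand): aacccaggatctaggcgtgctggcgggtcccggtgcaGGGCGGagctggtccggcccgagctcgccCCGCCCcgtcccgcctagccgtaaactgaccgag
The windows of Lama5 and Itgb5 held 2 GC boxes each, that of Lamb1 held 1 CCAAT box, and that of Itga8 held no match. The window of Lamb2, which also rose in the mean response, held 0 GC boxes. That of Itga3, called in no comparison, held 2. Of the 38 members 25 were in the promoter table, and 20 with a full window of this kind outside the gene were searched. Lama3 was not among these 20, which are not a count of all members with such a window. A GC box was present in 5 of these 20 and in 22.6% of 24337 such windows of all genes, and a CCAAT box in 1 of 20 and in 19.8%. No TATA box (TATAAA) was found in the 20, against 6.16% of all windows. A match of these letters is a description of the sequence and says nothing about which factor binds.

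The DOX responses of the 2 genotypes share no arrays, and they mostly had the same sign. Of the 38 members 31 (81.6%) did, 25 of them lower in both genotypes and 6 higher in both. Of the 18193 genes 61.2% had the same sign, with 33.7% lower in both and 27.5% higher in both. At a mean intensity of at least 32 the same sign was found for 85.2% of 27 members and 67.5% of 11644 genes. The Pearson correlation across the members was 0.55, and 0.62 across all genes, which share arrays within a genotype and are not independent. Values that did not overlap between DOX and untreated arrays were found for 12 members below and 3 above in knockout-labelled hearts, where 20.7% of all probe sets separated in either direction. In WT hearts these were 14 below and 3 above, where 24.4% did. The median log2 fold change of the members was -0.08 in knockout-labelled hearts and -0.09 in WT hearts, beside 0.00 over all genes in knockout-labelled hearts and -0.02 in WT hearts.

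**Figure D5:**
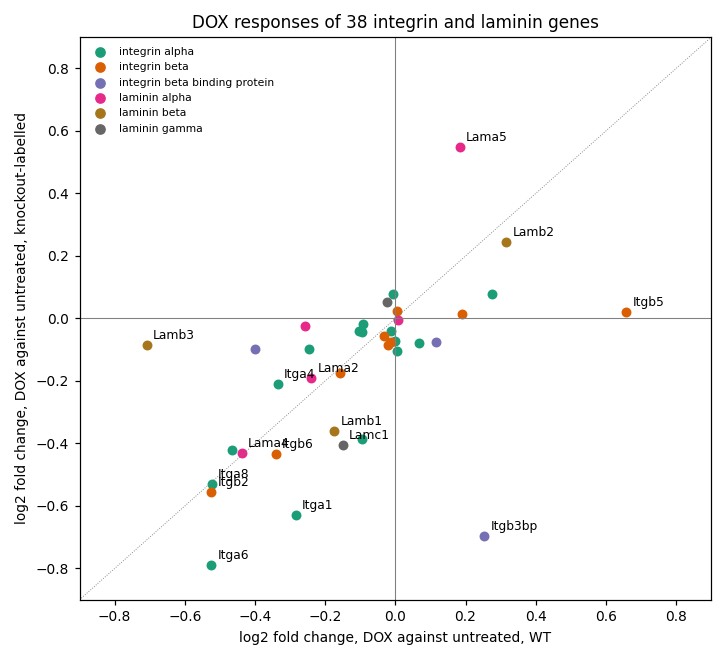
Log2 fold change of DOX against untreated hearts in knockout-labelled hearts (y axis) against the same in WT hearts (x axis) for the 38 genes, coloured by class, with the dotted line where both are equal. Most points lie in the lower left, Itgb5 lies far right near 0 on the y axis, and Itgb3bp lies low at a positive x value.

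The test of the difference between the 2 DOX responses called 0 of the members, where 0% of all probe sets were called. At an unadjusted p under 0.05 the difference was positive for 1 member, Lama3 (0.23, adjusted p = 0.549 from limma), and negative for 2, Itgb3bp and Itgb5, where it was positive for 4.28% and negative for 4.41% of all probe sets. The next smallest p was that of Itga1 (-0.35, adjusted p = 0.597). Lama3, a chain of epithelial laminin, was dim, with 21.9, 20.4 and 19.7 in knockout-labelled DOX hearts and 21.4, 19.4 and 24.0 in knockout-labelled untreated hearts, and 12.4, 13.6 and 20.3 in WT DOX hearts and 22.0, 23.7 and 28.4 in WT untreated hearts. No alternative that was run called any member in this comparison, and a missed threshold does not show that the responses are alike.

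The genotypes were also compared within each treatment. After DOX 0 of 38 members were called, where 0.941% of all probe sets were. At an unadjusted p under 0.05 3 members had a positive and 1 a negative fold change in knockout-labelled hearts, where 7.14% of all probe sets were positive and 8.34% negative. These were Itgax (0.12, adjusted p = 0.137 from limma), Lama3 (0.15, adjusted p = 0.29) and Itga4 (0.14, adjusted p = 0.304), and on the negative side Itgb5 (-0.47, adjusted p = 0.177). Itgax had 19.7, 21.6 and 17.7 in knockout-labelled DOX hearts and 16.4, 15.3 and 14.5 in WT DOX hearts, all below the level of 32 that was added to each intensity. The 2 groups did not overlap for 5 members above and 2 below, where 20.4% of all probe sets separated. The methods' t-test gave 4 members at an unadjusted threshold, which 11.8% of all probe sets passed, and 0 after Benjamini-Hochberg adjustment.

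Without DOX 0 of 38 members were called, where 1.81% of all probe sets were. At an unadjusted p under 0.05, 7 had a positive and 1 a negative fold change in knockout-labelled hearts, where 6.83% of all probe sets were positive and 7.29% negative. The methods' t-test gave 1 unadjusted, where 4966 of the 45037 probe sets passed, and 0 adjusted, and 1 was called without knockout-labelled untreated replicate 1. The smallest p values belonged to Itgb3bp (0.68, adjusted p = 0.131 from limma), Lamb1 (0.23, adjusted p = 0.14), Lamc1 (0.36, adjusted p = 0.141) and Lama5 (-0.42, adjusted p = 0.149). Lamb1 had 666, 657 and 771 in knockout-labelled untreated hearts and 608, 561 and 606 in WT untreated hearts. Lama5 had 176, 204 and 134 in knockout-labelled untreated hearts and 254, 207 and 249.9 in WT untreated hearts. The 2 groups did not overlap for 5 members above and 1 below, where 19.4% of all probe sets separated. In 27 of 38 members, among them 22 of 25 integrins, the fold change was above 0, with a median of 0.06 over the members and -0.01 over all genes.

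Beside these untreated genotype values stand those of smooth muscle and fibroblast markers. The summed intensity of 4 smooth muscle markers was 2084 to 3599 in knockout-labelled DOX hearts and 7356 to 13728 in knockout-labelled untreated hearts, and 1501 to 2486 in WT DOX hearts and 1857 to 2781 in WT untreated hearts. This sum is mostly Acta2, with a mean intensity of 3760 against 412 for Tagln, 314 for Myh11 and 36.6 for Cnn1. Acta2 was higher in knockout-labelled untreated hearts than in WT untreated hearts (2.41, adjusted p = 0.0139 from limma) and lower in knockout-labelled DOX hearts than in untreated ones (-1.91, adjusted p = 0.0251). The other 3 were not called in any comparison, and between the untreated genotypes they stood at 0.21 for Tagln (adjusted p = 0.808), 0.31 for Myh11 (adjusted p = 0.684) and 0.35 for Cnn1 (adjusted p = 0.244). All 5 fibroblast markers had a fold change above 0 between the untreated genotypes, with a median of 0.32, and Col1a1 was called higher in knockout-labelled untreated hearts (1.13, adjusted p = 0.048). After DOX all 5 were again above 0 between the genotypes, with a median of 0.21, and Lum was called higher in knockout-labelled DOX hearts than in WT DOX hearts (1.17, adjusted p = 0.0198). In the DOX responses Lum (-0.99, adjusted p = 0.018) and Col1a1 (-1.25, adjusted p = 0.0329) were called lower after DOX in knockout-labelled hearts, and Lum in WT hearts (-1.53, adjusted p = 0.00439). Of 5 endothelial markers, Kdr alone was called in the mean response (-0.41, adjusted p = 0.037). The others stood at -0.41 for Emcn (adjusted p = 0.0582), -0.06 for Cdh5, -0.05 for Tie1 and, in the other direction, 0.25 for Pecam1 (adjusted p = 0.193). The median of the endothelial markers was -0.06. The part of these markers in the values of Itga1, Itga8, Itga6, Lamb1 and Lamc1 was not tested.

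Of the members, 11 had a mean intensity under 32 and 27 a mean of at least 32. Itga2, Itga10, Itgae, Itgb4, Itgb8, Lama1 and Lamc3 were dim and were called in no comparison. The other dim members were Itgam, Itgax, Itgb6 and Lama3, given above. The mean intensity of the first 7 over the 12 arrays ran from 8.62 for Lama1 to 23.9 for Itgb4, a range in which a difference is poorly measured. Itgb2l and Itgb7 were brighter, with mean responses of 0.02 and -0.04. No filter on low values was applied before the test.

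The proteins that integrins gather inside the cell were followed in a list of 30 genes, of which 27 were measured. In knockout-labelled hearts 4 were called after DOX and in WT hearts 2, all of them lower, and in the mean response 5 were lower and 3 higher. Of all probe sets 1.47% were called lower in knockout-labelled hearts and 1.40% in WT hearts. In the mean response 4.59% of all probe sets were called lower and 4.56% higher. Parva, a parvin that binds the kinase-like protein ILK, fell in both genotypes (-0.30, adjusted p = 0.0127 from limma in knockout-labelled hearts and -0.31, adjusted p = 0.0133 in WT hearts). Tns3, a tensin, did so too (-0.26, adjusted p = 0.0434 in knockout-labelled hearts and -0.36, adjusted p = 0.017 in WT hearts). In knockout-labelled hearts Ilk (-0.27, adjusted p = 0.0185) and Flna, which encodes the actin crosslinker filamin A (-0.67, adjusted p = 0.0296), also fell. In the mean response Nrap, a protein of the intercalated disc, rose (0.49, adjusted p = 0.0139), and so did Tns2 (0.50, adjusted p = 0.0142). The median log2 fold change of the list was -0.13 in knockout-labelled hearts and -0.11 in WT hearts.

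Of 17 basement membrane partners of laminin, 2 were called after DOX in knockout-labelled hearts and 1 in WT hearts, all lower. The share of all probe sets called lower was 1.47% in knockout-labelled hearts and 1.40% in WT hearts. Col15a1, a collagen that joins basement membrane to the tissue around it, fell in both (-1.34, adjusted p = 0.00911 from limma in knockout-labelled hearts and -1.24, adjusted p = 0.0134 in WT hearts). Col4a2, a chain of the collagen network of the basement membrane, fell in knockout-labelled hearts (-0.52, adjusted p = 0.0437). Col4a2 and Col15a1 were higher in knockout-labelled untreated hearts than in WT untreated hearts, Col4a2 by 0.73, adjusted p = 0.0163 and Col15a1 by 0.92, adjusted p = 0.0306. In that comparison 0.924% of all probe sets were called higher. The mean response called 3, all lower, namely Col15a1 (-1.29, adjusted p = 0.00102), Hspg2, which encodes perlecan (-0.34, adjusted p = 0.0132), and Sparc (-0.58, adjusted p = 0.0192). It called 4.59% of all probe sets lower. The median of the list was -0.26 in knockout-labelled hearts and -0.04 in WT hearts after DOX, and 0.24 between the untreated genotypes, beside 0.00, -0.02 and -0.01 over all genes.

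The dystrophin complex, the other laminin receptor of muscle, was followed in 20 genes, of which 15 were measured. In knockout-labelled hearts 1 was called lower after DOX, Dmd, the dystrophin gene (-1.01, adjusted p = 0.021 from limma), and in WT hearts 1, the sarcoglycan Sgcb (-0.27, adjusted p = 0.0404). The share of all probe sets called lower was 1.47% in knockout-labelled hearts and 1.40% in WT hearts. Dtna, a dystrobrevin, was lower in knockout-labelled untreated hearts than in WT untreated hearts (-0.49, adjusted p = 0.0223), where 0.890% of all probe sets were called lower. The mean response called 4, all lower, among them Dmd (-0.62, adjusted p = 0.0133), where 4.59% of all probe sets were called lower. The median of the list was -0.03 in knockout-labelled hearts and -0.08 in WT hearts.

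Of 13 measured integrin ligands other than laminins, 1 was called after DOX in WT hearts, Tgfb1 (-0.47, adjusted p = 0.0437 from limma), which was lower and whose latent form is held by alphaV integrins. Among all probe sets 1.40% were called lower in WT hearts. The mean response called 3 lower, namely Vcam1, the ligand of alpha4 and alpha9 integrins (-0.56, adjusted p = 0.013), Tgfb1 (-0.36, adjusted p = 0.0161) and Fn1, which encodes fibronectin (-0.39, adjusted p = 0.0399). It called 4.59% of all probe sets lower. Of 8 membrane partners of integrins, Cd81, a tetraspanin, was called lower in knockout-labelled hearts (-0.40, adjusted p = 0.0343), where 1.47% of all probe sets were. In the mean response Cd151, the tetraspanin that binds laminin-binding integrins (-0.30, adjusted p = 0.0103), Cd81 (-0.28, adjusted p = 0.0137) and Cav1 (-0.21, adjusted p = 0.0491) were called lower, beside 4.59% of all probe sets. The median DOX response of the ligands was -0.25 in knockout-labelled hearts and -0.05 in WT hearts, and that of the membrane partners was -0.18 in knockout-labelled hearts and -0.14 in WT hearts.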

How the data were processed

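Whole-heart RNA was hybridised to 12 Affymetrix arrays, 3 in each of 4 groups set by the deposited labels. The linear intensities, 1 per probe set, were deposited by the authors after processing with Affymetrix Expression Console. The version, the summary method and any scaling are not given in the sources used here. Values ran from 3.28 to 27119, and the number of arrays limits the precision. P values measure the spread between arrays, which may be technical, since the sources do not say whether an array holds 1 heart.

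For the present report intensities were turned into log2(intensity + 32). In limma 3.58.1 (R 4.3.3; lmFit, contrasts.fit, eBayes) a mean was estimated for each of the 4 groups from the 12 arrays, for all 45037 probe sets together. Tests were two-sided, with Benjamini-Hochberg adjustment across the whole table. A member was called at an adjusted p under 0.05 on its brightest probe set. The 5 comparisons were the DOX response in each genotype, the genotype difference in each treatment, and the interaction. Plots were drawn with matplotlib 3.10.9 in Python 3.11.15.

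Probe sets were named by a platform annotation in which 34945 name 1 gene, 932 several and 9160 none. Entrez IDs joined 34741 of the first kind to a RefSeq gene table.

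Named with values were the called members, the 4 with the smallest p in each comparison, the 2 brightest of each class, and called members with a probe set of opposite sign. The members, gene lists and markers were chosen with earlier results of these data known. Itga3, Itga5, Itga7, Itga9, Itga2b, Itgal, Itgam, Itgb2, Itgb3 and Lamb3 were added for their known role or level after their values were seen. The code was tested on simulated data. Listed partner or marker genes that the annotation used here does not pair with a probe set of 1 gene are not analysed here.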

Additional observations from a re-analysis of the deposited data

How the results depend on the processing

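The direction of each called change held in all 341 values recomputed for 18 pairs of gene and comparison, and 254 of them stayed past the threshold. For the DOX response in knockout-labelled hearts, with 5 members called, 8 were called among probe sets with a mean of at least 32, where 7.80% of all such probe sets were called in place of 2.20% of the whole table, and 3 with the mean of all probe sets of a gene (4.53% of all genes). For the 6 arrays fitted alone 0 were called (0.175% of all probe sets), fewer arrays being used. The t-test gave 11 unadjusted (11.9% of all probe sets) and 0 after Benjamini-Hochberg adjustment. Leaving out 1 array gave 0 to 5, where 0.258% to 2.26% of all probe sets were called. For the DOX response in WT hearts, with 2 called (3.06% of all probe sets), quantile normalization gave 5 (3.61%). A trended and robust variance, array weights, 1 added before the log2, and probe sets with a mean of at least 32 gave 6 each (4.41%, 5.67%, 4.29% and 10.4% of all probe sets tested, in that order). The mean of all probe sets gave 4 (5.69% of all genes), and the t-test gave 9 unadjusted (15.0% of all probe sets) and 0 adjusted. Leaving out 1 array gave 0 to 5, where 0.091% to 5.07% of all probe sets were called. For the genotype difference after DOX, with 0 called by limma, the t-test gave 4 unadjusted (11.8%) and leaving out 1 array gave 0 (0.0422% to 1.98%). Without DOX, probe sets with a mean of at least 32 gave 1 (6.28%), the t-test gave 1 unadjusted (4966 of 45037 probe sets), and leaving out 1 array gave 0 to 1 (0.187% to 2.68%). For the mean response, chosen after seeing the data, the count of 11 became 8 to 15 over the other alternatives and 7 to 11 without 1 array. The share of all probe sets or genes tested was 8.04% to 21.7% over those alternatives and 4.99% to 10.7% without 1 array, in place of 9.15%. The interaction had 0 member calls throughout. Apart from fewer arrays or probe sets, the cause of these shifts was not tested.

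With the replicate number as a block, limma called 4 members in knockout-labelled hearts, 3 in WT hearts, 8 in the mean response and 0 in the other comparisons. Of all probe sets 2.43% were then called in knockout-labelled hearts, 2.96% in WT hearts and 8.82% in the mean response. The replicate numbers share no stated litter or day. Of 18 pairs of arrays with the same number 3 had deviations that correlated above 0.1, and of 36 other pairs 6 did, so the block is not read as a pairing.

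Genes with a mean under 32 lie near the dim end of the arrays, and a fold there is understated by the added 32. With quantile normalization or array medians subtracted, the median of all probe sets moved by less than 0.1 on the log2 scale in each comparison.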
